A study of Mus musculus with 8 samples.

Results

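The H3K27ac peaks described here lie over Neat1 and Malat1, a pair of neighbouring long noncoding RNA genes on mouse chromosome 19, in Oli-neu cells. Every peak was taken that shared at least 1 base with the gene bodies, with the sequence between them or with the 20 kb on either side (chr19:5775690-5865478, GRCm38/mm10). This gave 6 of the 28924 peaks of proliferating cells and 5 of the 27965 peaks of differentiating cells, or 11 of 56889 in all. The locus was chosen by peak width, because Neat1 holds one of the widest peaks, so the widths and their ranks below describe that choice and test nothing. Oli-neu is an established cell line of oligodendrocyte progenitor cells, derived from embryonic C57BL/6 mice per the labels. Acetylated lysine 27 of histone H3 (H3K27ac) was profiled by chromatin immunoprecipitation and sequencing (ChIP-seq) in 1 library of proliferating cells, kept in medium with T3, L-thyroxine, bFGF and Pdgf-BB, and in 1 library of differentiating cells, labelled as control, kept without growth factors and with the erb inhibitor PD174265 at 1 μM. The labels give 1 day of differentiation, whereas the culture methods of the study give a longer time. As each state is a single library, differences between them have no replicate check and were not tested. The lists give no read numbers, so the reads behind each peak are not known from them. The study's methods give a higher number of uniquely mapped reads for the differentiating library, and the part of this difference in the results was not tested. The 6 ATAC-seq samples of the series were left aside.

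H3K27ac is found on the nucleosomes that flank active transcription start sites (TSS) and enhancers. Neat1 is the RNA scaffold of paraspeckles, nuclear bodies that hold RNA-binding proteins, and is made as a short polyadenylated transcript and as a long transcript from the same start, of which the long one builds the bodies. Malat1 is an abundant RNA of nuclear speckles, where splicing factors collect. Both RNAs stay in the nucleus. The 3′ ends of Malat1 and of the long Neat1 transcript are formed by cleavage next to a small tRNA-like RNA. In GENCODE M21, Neat1 (ENSMUSG00000092274.3) lies on the minus strand at chr19:5824708-5845478, and Malat1 (ENSMUSG00000092341.3) on the same strand at chr19:5795690-5802672, so that 22035 bp separate the end of Neat1 from the start of Malat1. The antisense gene Frmd8os starts 145 bp from the Neat1 TSS on the plus strand and runs away from it. Frmd8, a protein-coding gene on the minus strand, reaches into the window with its 3′ part.

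Stretches of 300 bases from this locus are printed 5′ to 3′ on the minus strand, on which both genes are transcribed. The first, shown because the edge of the Malat1 peak differs there between the states, is the RefSeq promoter of Malat1 (GRCm38.p6, chr19:5802623-5802922), from 250 bases before to 50 after the TSS. The others, shown because they are fully covered in both states, are the centres of the bases under peaks of both lists, upstream of Malat1 (chr19:5803436-5803735), between the genes (chr19:5811972-5812271) and upstream of Neat1 (chr19:5846781-5847080). Capitals mark matches on either strand to 8 short motifs that were searched, and positions count from 1 at the 5′ end of the printed strand.
Malat1 promoter: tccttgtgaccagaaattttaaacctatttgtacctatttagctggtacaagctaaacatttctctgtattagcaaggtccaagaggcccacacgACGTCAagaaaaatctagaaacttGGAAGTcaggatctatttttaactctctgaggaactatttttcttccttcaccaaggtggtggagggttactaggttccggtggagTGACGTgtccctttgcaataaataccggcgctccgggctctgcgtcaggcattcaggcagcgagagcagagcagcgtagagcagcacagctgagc
Malat1 upstream peak: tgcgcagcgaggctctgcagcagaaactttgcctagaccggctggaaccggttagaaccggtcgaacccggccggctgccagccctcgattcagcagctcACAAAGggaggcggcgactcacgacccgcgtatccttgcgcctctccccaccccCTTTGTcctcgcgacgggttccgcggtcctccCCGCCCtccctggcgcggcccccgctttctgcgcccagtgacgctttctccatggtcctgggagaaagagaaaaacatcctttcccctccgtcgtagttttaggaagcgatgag
Intergenic peak: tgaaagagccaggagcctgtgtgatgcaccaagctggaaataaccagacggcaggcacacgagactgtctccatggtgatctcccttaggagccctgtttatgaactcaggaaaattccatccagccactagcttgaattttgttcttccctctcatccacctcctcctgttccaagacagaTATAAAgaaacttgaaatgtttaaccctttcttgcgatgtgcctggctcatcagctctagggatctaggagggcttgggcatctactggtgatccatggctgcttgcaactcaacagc
Neat1 upstream peak: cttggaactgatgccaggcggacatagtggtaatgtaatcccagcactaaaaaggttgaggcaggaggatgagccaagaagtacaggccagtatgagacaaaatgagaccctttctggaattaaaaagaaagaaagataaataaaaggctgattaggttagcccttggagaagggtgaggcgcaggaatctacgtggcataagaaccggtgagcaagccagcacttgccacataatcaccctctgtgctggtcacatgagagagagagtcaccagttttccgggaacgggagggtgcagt

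The Malat1 promoter held the CRE core TGACGT at positions 96 and 206, and 7.51% of 32851 RefSeq promoters of this length hold it. It also held the ETS motif GGAAGT at position 120, which 23.8% of the promoters hold. No match was found there to TATAAA (13.6% of promoters), CCAAT (37.4%), GGGCGG (35.7%), TGANTCA (7.81%), CACGTG (7.15%) or ACAAAG (18.7%). None of these motifs overlapped another in the printed stretches. The stretch upstream of Malat1 held the SOX motif ACAAAG at positions 101 and 155 and the GC box GGGCGG at position 187. Over 6678 regions shared by both lists, 19.6% of the central 300 bases held ACAAAG and 40.9% held GGGCGG. The intergenic stretch held TATAAA at position 183, as 7.67% of these centres did, and the stretch upstream of Neat1 held no match to any of the 8 motifs. The other motifs were present in 27.2% (CCAAT), 5.93% (TGANTCA), 6.38% (CACGTG), 6.57% (TGACGT) and 18% (GGAAGT) of the centres. Such matches are descriptions of the sequence and not binding sites.

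In both states a single wide H3K27ac peak covered the start of Neat1. In proliferating cells it reached from 1530 bp inside the gene to 3678 bp upstream of the TSS (chr19:5843948-5849156), a width of 5209 bp. In differentiating cells it reached from 773 bp inside the gene to 3822 bp upstream (chr19:5844705-5849300), a width of 4596 bp. The part of the peak inside Neat1 was thus shorter in the differentiating library, with its edge 757 bp closer to the TSS, while the upstream edge differed by 144 bp. These peaks shared 4452 bp, or 83.2% of the bases under either. Over all 8471 pairs of overlapping peaks of the 2 lists, the median of this share was 51.9%, with quartiles of 31.4% and 71.5%. Those pairs are of all widths, whereas the Neat1 peak was chosen for its width. The share over wide pairs alone was not computed. Most of the wide peak lay upstream of Neat1, over the TSS and the first part of Frmd8os, of which 61.3% was covered in proliferating and 63.8% in differentiating cells. H3K27ac carries no strand, so acetylation that belongs to Neat1 and to Frmd8os cannot be told apart here.

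**Figure D1:**
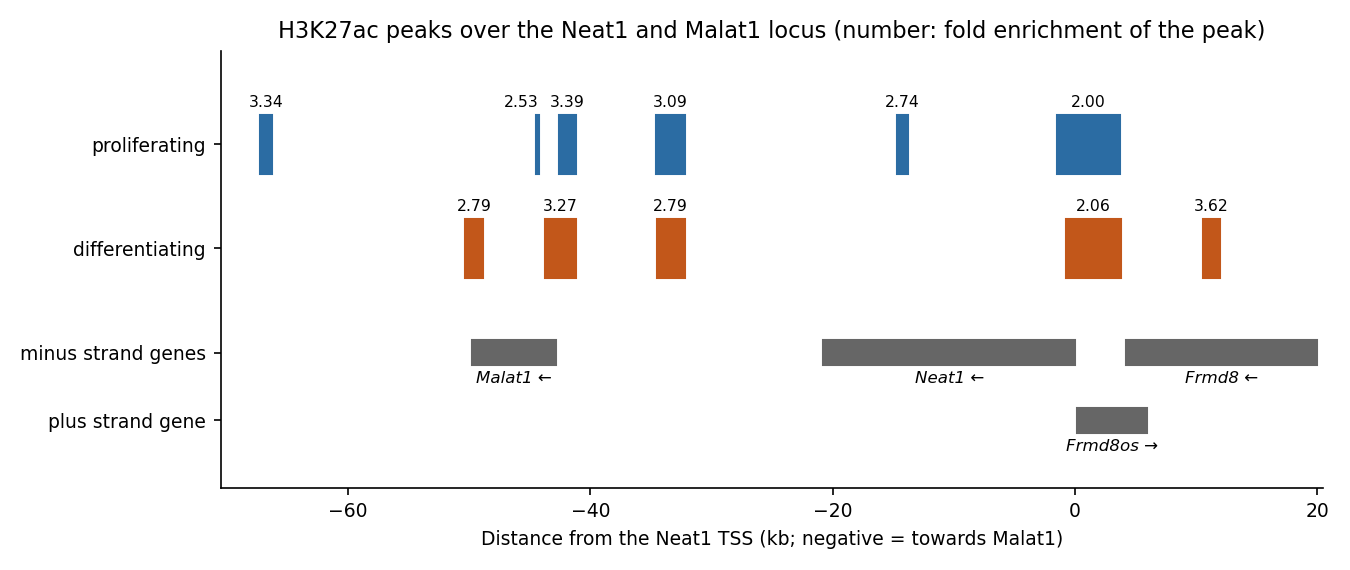
Map of the H3K27ac peaks (boxes) of proliferating and differentiating Oli-neu cells over the locus, with distance from the Neat1 TSS in kb on the x axis and genes as grey bars with arrows for their direction. The number above each peak is its fold enrichment; the wide peak at the Neat1 start (2.0 and 2.06), the peak at the Malat1 start (3.39 and 3.27) and the intergenic peak (3.09 and 2.79) appear in both states, Frmd8 continues past the right edge, and the small annotated RNA genes are not drawn.

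By width, the Neat1 peak ranked 5th of the 28924 peaks of proliferating cells and 7th of the 27965 peaks of differentiating cells. Peaks of at least this width made up 0.0173% of the proliferating list (95% exact Clopper-Pearson interval 0.00561% to 0.0403%) and 0.025% of the differentiating list (0.0101% to 0.0516%). These intervals cover counting error only. It was the widest peak of chromosome 19 in both lists, among 1045 and 972 peaks. Without peaks that are at least 50% repeat, it ranked 3rd of 25678 and 5th of 25208. In the proliferating list, the wider peaks were 2 near the start of chromosome 9, of which 96.2% and 95.7% is marked as repeat in the genome sequence, 1 over a ribosomal RNA gene on chromosome 17, and 1 on chromosome 2 with 47.6% repeat. The Neat1 peak itself had 9.91% repeat in proliferating and 10.9% in differentiating cells, below the list medians of 13.0% and 12.9%. In the differentiating list the wider peaks lay at the same places on chromosomes 17 and 2, at 2 places on chromosome 9, on the mitochondrial genome and over Chd3, which encodes a chromatin remodeler. The next narrower peaks were 4816 bp wide in the proliferating list, again near the start of chromosome 9, and 4513 bp wide in the differentiating list, on chromosome 1.

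The fold enrichment of the Neat1 peak was among the lowest of each list. It was 2.0 in proliferating cells, rank 28900 of 28924, and 2.06 in differentiating cells, rank 27910 of 27965, where the list medians were 3.33 and 3.13. Wide peaks had lower medians. The median was 3.12 over the 793 proliferating peaks of 2 kb or more (2.74% of the list). It was 2.98 over the 964 differentiating ones (3.45%). Among these wide peaks the Neat1 peak still ranked low by fold enrichment, at 781 of 793 and 955 of 964. Over the 14 peaks of at least 4 kb in each list, the median was 2.07 and 2.15. Both sets of 14 include the Neat1 peak itself and peaks on repeats, a ribosomal RNA gene and the mitochondrial genome. Across all peaks, Spearman's rho between width and fold enrichment was -0.203 and -0.157, for peaks that share 1 library per list. By significance the Neat1 peak stood above the middle of its list. Its −log10 q was 2.42 (rank 8650) in proliferating and 3.1 (rank 5034) in differentiating cells, where the list medians were 1.93 and 1.89. Of all peaks, 29.9% and 18% were at least as significant. Among the peaks of 2 kb or more, the Neat1 peak ranked 380 of 793 and 300 of 964 by significance. The median −log10 q of those wide peaks was 2.37 and 2.3.

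**Figure D2:**
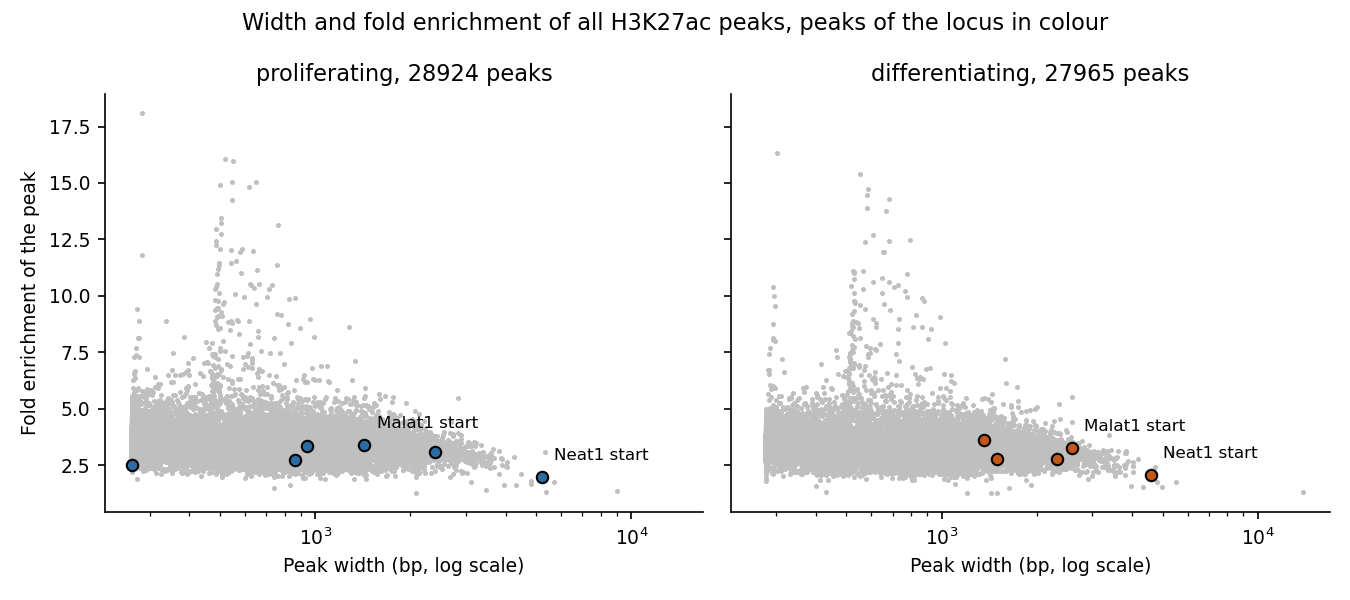
Fold enrichment against width (log scale, bp) of every H3K27ac peak, one grey point per peak, in proliferating (left) and differentiating (right) cells, with the peaks of the locus in colour. The Neat1 peak lies at the wide and low end at 5209 bp and 4596 bp, and the Malat1 peak at 1429 bp and 2585 bp with a fold enrichment of 3.39 and 3.27.

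Along the body of Neat1, H3K27ac was found at the 5′ end and at 1 internal place. Of the 20771 bp of the gene, peaks covered 2395 bp (11.5%) in the proliferating and 774 bp (3.73%) in the differentiating list. The short transcript, Neat1-202, spans 3170 bp, and 48.2% of it was covered in proliferating and 24.4% in differentiating cells. Of the 17599 bp of the gene beyond the 3′ end of the short transcript, 864 bp (4.91%) were covered in proliferating cells, by a peak between 13794 bp and 14657 bp downstream of the TSS (chr19:5830821-5831684). It had a fold enrichment of 2.74 and a −log10 q of 1.23, rank 28288 of 28924 by significance, and its q was above the cutoff of 0.05 stated in the methods of the study. No peak of differentiating cells lay in this part. Leaving out peaks with q above 0.05 lowered the covered bases of proliferating cells to 1531.

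Malat1 carried its H3K27ac peak just upstream of the TSS in both states, and in differentiating cells the peak continued into the gene. In proliferating cells the peak began 199 bp upstream of the TSS and ended 1627 bp upstream (chr19:5802871-5804299), with a width of 1429 bp, a fold enrichment of 3.39 and a −log10 q of 5.20. In differentiating cells it reached from 957 bp inside the gene to the same upstream base (chr19:5801715-5804299), with a width of 2585 bp, a fold enrichment of 3.27 and a −log10 q of 6.31. The upstream edge was thus at the same base in both lists, and the other edge differed by 1156 bp. Of the promoter sequence printed above, the first 52 bases lay under the peak of proliferating cells and all 300 under that of differentiating cells. By significance these were the strongest peaks of the locus, at rank 1149 of 28924 and rank 870 of 27965, and by fold enrichment they stood near the middle of their lists, with 44.9% (44.3% to 45.5%) and 37.1% (36.6% to 37.7%) of peaks at least as high. By width, 9.33% of proliferating and 0.862% of differentiating peaks were at least as wide.

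**Figure D3:**
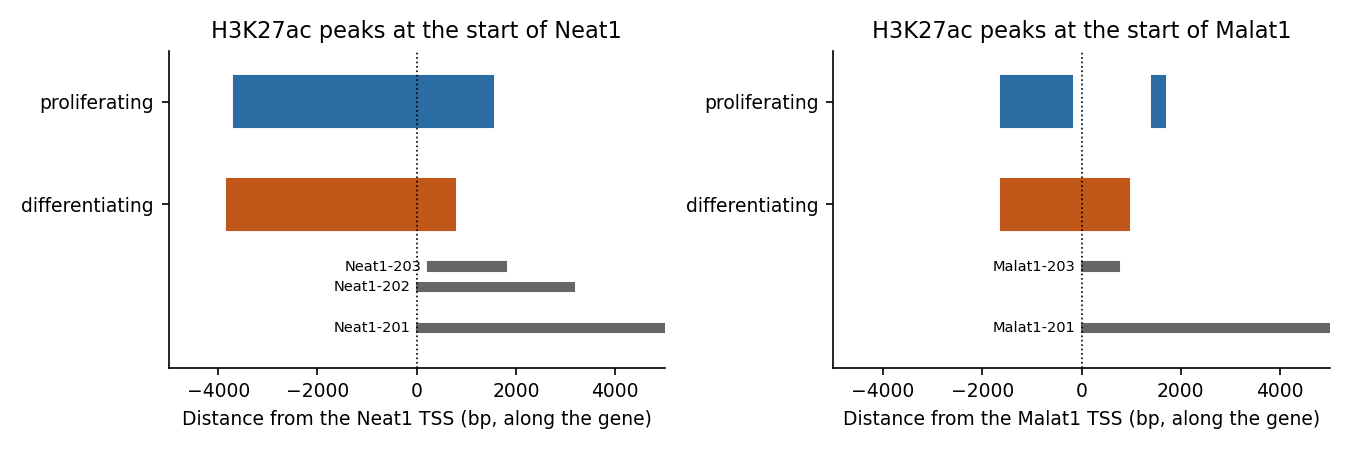
H3K27ac peaks (coloured boxes) within 5000 bp of the TSS of Neat1 (left) and Malat1 (right) in both states, with transcripts as grey bars and distance along the gene in bp, upstream to the left. The inner edge lies 1530 bp and 773 bp inside Neat1, and at Malat1 the peak stops 199 bp before the TSS in proliferating cells and reaches 957 bp past it in differentiating cells.

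Inside Malat1, the proliferating list held a second peak between 1419 bp and 1681 bp downstream of the TSS (chr19:5800991-5801253). It was 263 bp wide, the shortest width of this list, which 22.9% of its peaks share, and had a fold enrichment of 2.53 and a −log10 q of 2.22. Joining peaks of a list less than 2 kb apart, a setting chosen after the data were seen, merged it with the upstream peak and raised the covered part of the gene from 263 bp to 1682 bp. In differentiating cells a peak lay over the 3′ end of Malat1 instead (chr19:5795147-5796645), with 956 bp inside the gene, 543 bp beyond its end and a fold enrichment of 2.79. It lay over exons of the transcripts Malat1-201, Malat1-202 and Malat1-204, had a −log10 q of 1.45, and had no counterpart in the proliferating list. In all, peaks covered 263 bp (3.77%) of the 6983 bp of Malat1 in the proliferating and 1914 bp (27.4%) in the differentiating list. The covered length was higher in differentiating cells for Malat1 and higher in proliferating cells for Neat1, in libraries without replicates.

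Between both genes lay a peak of nearly the same extent in either state. It spanned 2386 bp in the proliferating list (chr19:5810916-5813301) and 2311 bp in the differentiating one (chr19:5810966-5813276), with edges that differed by 50 bp and 25 bp. The shared part made up 96.9% of the bases under either peak, the highest share of the 3 pairs at the locus. It began 8244 bp upstream of the Malat1 TSS and ended 11407 bp from the 3′ end of Neat1 in proliferating cells, and no gene is annotated there. The fold enrichment was 3.09 and 2.79 and the −log10 q was 3.89 and 2.87. By width it ranked 324 of 28924 and 455 of 27965. Its CpG content of 9.22 and 9.09 per kb was below the list median of 11.3 per kb in both lists.

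The other peaks of the window were found in 1 list each. In proliferating cells a peak of 943 bp with a fold enrichment of 3.34 and a −log10 q of 1.75 lay 16489 bp beyond the 3′ end of Malat1 (chr19:5778259-5779201), where no gene is annotated. In differentiating cells a peak of 1364 bp lay within Frmd8, 10567 bp upstream of the Neat1 TSS (chr19:5856045-5857408). With 3.62 it had the highest fold enrichment of the 11 peaks, its −log10 q was 4.13, and 32.5% of it was marked as repeat. Thus 3 of 6 peaks of proliferating and 3 of 5 peaks of differentiating cells had a counterpart, where 29.2% and 30.1% of all peaks had one. Of all peaks of 2 kb or more, 76.4% and 69.7% had one. Just outside the window, the nearest peak of proliferating cells on the Neat1 side lay 24234 bp beyond the gene, over Frmd8, with a fold enrichment of 2.97. Those of differentiating cells lay 52888 bp away over Ltbp3 and 25526 bp away over Frmd8, with 3.39 and 3.17.

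The peaks at both gene starts coincided with the stretches of the window that are richest in CpG. Of 179 bins of 500 bp, 3 held at least 60 CpG per kb, against a median of 14.0, and all 3 lay under a peak in both lists. Those bins were the pair that covers 307 bp to 1306 bp upstream of the Malat1 TSS, with 64.0 and 82.0 CpG per kb, and the bin directly upstream of the Neat1 TSS, with 64.0. Of the 44 bins with at least 20 CpG per kb, 28 lay under no peak of either list. The Malat1 upstream peak of proliferating cells held 59.5 CpG per kb and 56.1% GC, and the Neat1 peak held 26.7 CpG per kb and 54.4% GC. The medians of the proliferating list were 11.3 CpG per kb and 47.1% GC.

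**Figure D4:**
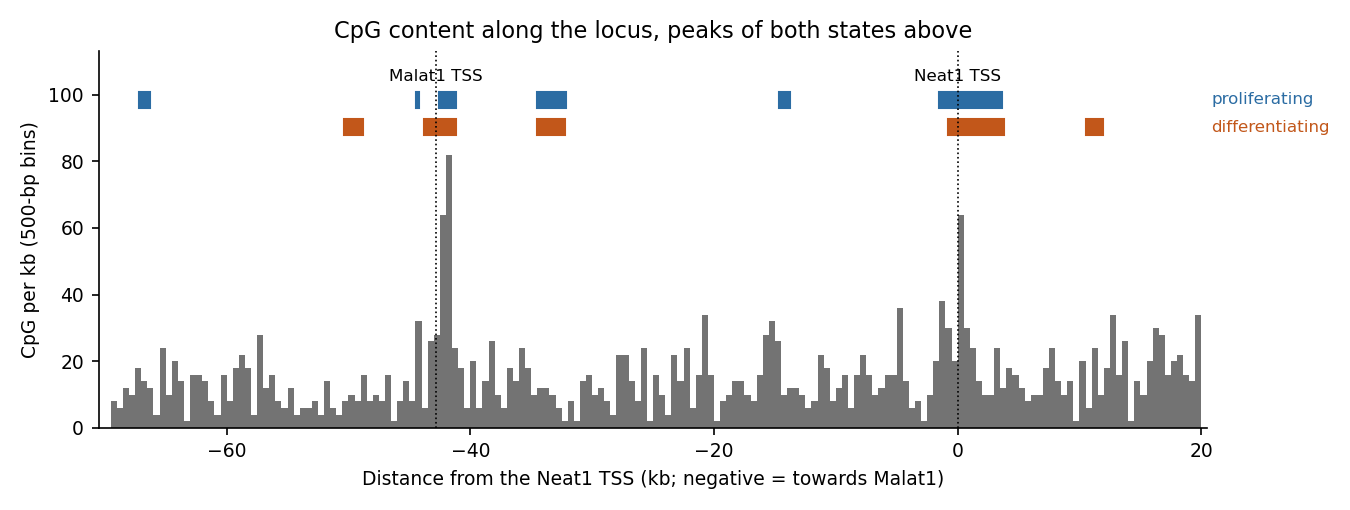
CpG dinucleotides per kb in 500-bp bins (grey bars) against distance from the Neat1 TSS in kb, with the H3K27ac peaks of both states as boxes above and dotted lines at both TSS. The highest bins stand 307 bp to 1306 bp upstream of the Malat1 TSS (64.0 and 82.0 per kb) and directly upstream of the Neat1 TSS (64.0). All lie under peaks of both states.

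Of the 89789 bp of the window, 11094 bp (12.4%) lay under peaks of the proliferating and 12355 bp (13.8%) under peaks of the differentiating list. On chromosome 19 as a whole the covered share was 1.3% and 1.37%, and over all nuclear chromosomes 0.808% and 0.863%. The window held 66.8 and 55.7 peaks per Mb, against 17.0 and 15.8 on chromosome 19 and 10.6 and 10.3 over all nuclear chromosomes. Since the locus was chosen for a wide peak, these values show where it stands and are not evidence of an excess.

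Among 10155 long noncoding RNA genes of GENCODE M21, a peak in the promoter region, which runs from 3000 bp before the TSS to 100 bp after it, was found for 12.3% in proliferating cells, 14.1% in differentiating cells and 8.14% in both, and both Neat1 and Malat1 were among the last. A TSS under a peak was less common, at 6.31% and 7.66%, and at 4.02% in both lists. Neat1 had it in both states and Malat1 in differentiating cells. Summed over the gene and its promoter region, the bases under peaks placed Neat1 (5395 bp and 3774 bp) at rank 42 and 85 of the 10155 genes and Malat1 (1692 bp and 3541 bp) at rank 411 and 99. Of a list of 20 other genes known for long noncoding RNAs, of which Snhg11 is annotated as protein-coding, a promoter peak was found for 8 (40%) in proliferating and 5 (25%) in differentiating cells. Gas5, Snhg1, Pvt1, Mir17hg and Dleu2 had one in both. At Pvt1, a gene next to Myc, the widest promoter peak was 1141 bp and 2152 bp. This was narrower than that of Neat1 in both states, but Neat1 was chosen for its width, so the comparison tests nothing. By the bases under peaks summed over gene and promoter region, Pvt1 ranked above Neat1 in both states. At Gas5 and Snhg1, hosts of small nucleolar RNAs, the widest promoter peak was 263 bp wide in proliferating cells, and 381 bp and 828 bp in differentiating cells. Tug1, Peg13 and Epb41l4aos had a promoter peak in proliferating cells alone. Another 12 genes had none in either list, among them Meg3, Miat, Xist, H19 and Kcnq1ot1.

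The genes for proteins of the bodies that these RNAs occupy mostly carried H3K27ac at their promoters. Of 16 genes for paraspeckle proteins, 13 (81.2%) had a promoter peak in proliferating cells and 14 (87.5%) in differentiating cells, against 23.7% and 27.7% of 21951 protein-coding genes. For 13 the peak was present in both states, against 17.6% of protein-coding genes. Among them were the core proteins Nono, Sfpq, Pspc1 and Rbm14, and Ewsr1, Taf15, Tardbp, Hnrnpa1, Hnrnph3, Hnrnpr, Smarca4 and Dazap1 in both states. Hnrnpk had a peak in differentiating cells alone. Cpsf6 and Nudt21, subunits of a factor for 3′ end processing, had none. The peak at Sfpq had a fold enrichment of 4.61 and 4.53 and that at Nono 3.89 and 3.88, where the list medians were 3.33 and 3.13. In width they stayed at 817 bp to 1266 bp. Of 15 genes for nuclear speckle proteins, 10 (66.7%) had a promoter peak in proliferating and 13 (86.7%) in differentiating cells. Son, a scaffold protein of speckles, had a fold enrichment of 5.10 and 3.72, and the splicing factor gene Srsf1 of 4.38 and 5.0. Srsf2, Srsf3, Srsf5, Srsf6, Srsf7, Srrm1 and U2af2 had a peak in both states as well. Sf3b1 had one in proliferating cells alone, Srsf11, U2af1, Tra2b and Mettl16, whose product binds the 3′ end of Malat1, in differentiating cells alone, and Srrm2 in neither. With −log10 q of at least 5 these counts fell to 4 and 7 paraspeckle genes and to 5 and 4 speckle genes. The share of all protein-coding genes was not computed at this cutoff, so 23.7% and 27.7% are no background for these lower counts. The lists were chosen with earlier results of these data known, and no test was run on them.

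**Figure D5:**
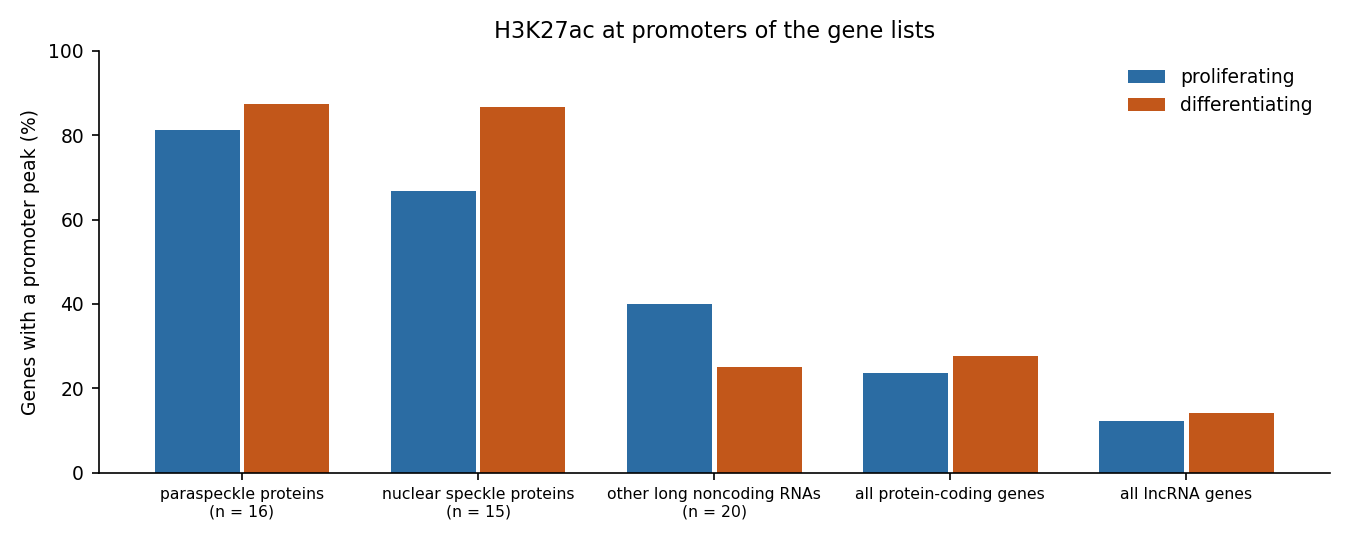
Percent of genes whose promoter region holds H3K27ac in proliferating (blue) and differentiating (orange) cells, for the 3 gene lists and for all protein-coding and all long noncoding RNA genes. Paraspeckle genes stand at 81.2% and 87.5% and speckle genes at 66.7% and 86.7%, above the 23.7% and 27.7% of all protein-coding genes.

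Among 10510 genes with a peak in both lists, those whose widest peak was most like that of Neat1 shared the Neat1 peak itself. They were Frmd8os and the small annotated RNAs Gm27505, Gm27533 and Gm28006. In differentiating cells, Gm27533 shared it only through its promoter region, as the TSS of Gm27533 lay 268 bp from the peak. The next was Gm10722 near the start of chromosome 9, with 4816 bp and 4819 bp, at a summed difference of 0.18 in log2 width over the 2 lists. The likeness is in width only, as 96.3% and 96.5% of the Gm10722 peaks is marked as repeat, against 9.91% and 10.9% for Neat1. For Malat1 the nearest were St6gal1 (0.05), Gramd4 (0.06) and Kdm2a, Carhsp1 and Tgfa (0.07 each). Of 8 markers of the oligodendrocyte lineage, 3 (Sox10, Olig1 and Olig2) had promoter peaks in both states and the other 5, among them Nkx2-2, Pdgfra, Cspg4 and Cnp, had one in neither, beside 23.7% and 27.7% of all protein-coding genes with one in each state. This count depended on the promoter definition. It was 6 in proliferating and 4 in differentiating cells with 1000 bp on both sides of the TSS, and 6 and 5 with the TSS of every transcript. The share of all protein-coding genes under these other definitions was not computed. The Sox10 peak was 2743 bp and 3654 bp wide with a fold enrichment of 2.47 and 2.23. Of 12 markers of astrocytes, neurons and microglia, Slc1a3 had a promoter peak in proliferating and Syt1 in differentiating cells, and the other 10 had none, beside the same 23.7% and 27.7%. The Slc1a3 peak was lost with q of at most 0.05 and with 1000 bp on both sides of the TSS.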

How the data were processed

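Peak lists of H3K27ac ChIP-seq from 1 proliferating and 1 differentiating library of Oli-neu cells were analysed. Per the methods and the submitters' processing notes, the authors aligned reads with Bowtie2 2.1.0 to GRCm38/mm10, kept uniquely mapped reads, removed PCR duplicates with SAMtools, called broad peaks in each library with MACS2 2.0.10 and filtered blacklisted regions with bedtools. An input library is not given in the sources used here. Beside its position, each deposited peak has a name that joins 3 values. By the usual column order of MACS2 these were taken as fold enrichment (a ratio, averaged over the broad peak), −log10 p and −log10 q. The largest deposited q was 0.0995 and 0.0983, above the stated cutoff of 0.05. Values were ranked within their own list, since the lists are not normalized to each other.

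Peaks were intersected in Python 3.11.15 (numpy 2.4.6, pandas 2.3.3, scipy 1.17.1, matplotlib 3.10.9), where 1 shared base counted as an overlap, with GENCODE M21 genes on the same build. Long noncoding RNA genes were those of the lincRNA, antisense, processed transcript, sense and related biotypes. The functions for overlaps, covered bases and motifs were tested on simulated data. Sequences are from RefSeq GRCm38.p6. Of Neat1 and Malat1, 1 matched the RefSeq promoter table, Malat1. The genes named are Neat1, Malat1, genes with a TSS in the window, the members of the lists, the 5 genes closest in log2 width of their widest peak, and genes under peaks at least as wide. Some items are not reported here. Oip5os1 was not found in the annotation. The members and lists were chosen with earlier results of these data known. No test was run, and other thresholds, windows and promoter definitions were tried.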

Additional observations from a re-analysis of the deposited data

How the results depend on the processing

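All results are values with no test from 1 library per state, so no replicate could be left out. A share is said to move where it left its 95% binomial interval, and a count where it changed by more than 1.5 times. The interval covers counting error only and narrows with list size. Of 126 recomputed values for 30 results, 83 did not move and 43 did. Counts of 0 that stayed at 0 are among those that did not move. No paired analysis was possible because each state has 1 library and no result comes from a test. The cause of a shift was not tested unless stated. Promoter peak shares over all genes were not recomputed under the other settings, so the list counts below have no background. Where values come in pairs, the proliferating list is first.

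Keeping peaks with −log10 q ≥ 5, which leaves fewer, 1 and 1 peaks of the locus remained, those upstream of Malat1, and 1 and 1 had a counterpart. The covered bases of Neat1 fell to 0 and 0, so no width share could be given for it, and those of Malat1 to 0 and 958. The share at least as wide as the Malat1 peak was 18.4% and 1.75%. Promoter peaks remained for 4 and 7 paraspeckle genes, 5 and 4 speckle genes, 1 and 2 other long noncoding RNA genes, 1 and 1 oligodendrocyte markers, 0 astrocyte markers in proliferating and 0 neuron markers in differentiating cells. With q of at most 0.05, the covered bases of Neat1 were 1531 in proliferating cells, where 0 astrocyte markers kept a promoter peak.

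A flank of 50 kb gave 11 and 9 peaks. Merging peaks within 2 kb, added after the data were seen, raised the covered bases of Malat1 in proliferating cells to 1682. Ranked within chromosome 19, which has fewer peaks, the width shares were 0.0957% and 0.103% for Neat1 and 1.65% for Malat1 in differentiating cells. The fold shares there were 98.7% and 100% for Neat1 and 40% for Malat1 in differentiating cells. Fold shares use the peak of the gene with the highest fold enrichment. For Neat1 in proliferating cells this was the internal peak with 2.74, not the wide peak with 2.0. Over the whole lists the fold shares of Neat1 were 94.7% and 99.8%. Without peaks that are at least 50% repeat, the width share of Malat1 was 10.1% in proliferating and its fold share 37.8% in differentiating cells. Ranked by −log10 q in place of fold enrichment, the shares at least as high were 29.9% and 18% for Neat1 and 3.97% and 3.11% for Malat1. For Neat1 the shares by −log10 q come from the wide peak in both lists. With 1000 bp on both sides of the TSS, 6 oligodendrocyte markers and 0 astrocyte markers had a peak in proliferating cells. With the TSS of every transcript, 6 and 5 oligodendrocyte markers had one, and in differentiating cells 8 other long noncoding RNA genes and 1 astrocyte marker.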
